A study of Mus musculus with 12 samples.

Results

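The last and coldest step of a graded cold exposure was examined in epididymal white adipose tissue (eWAT), the visceral fat depot beside the epididymis, by setting mice that spent the final 3 weeks at –20°C by day and –10°C by night (–10°C/–20°C) against mice that spent them at –10°C for 24 hours a day (–10°C). The comparison holds 6 of the 12 arrays in the series, 3 per group, which the labels number as biological replicates 1 to 3. It covers the 14860 genes that the array annotation ties to a row with a single symbol, each gene being represented by its row with the highest mean over all 12 arrays. The other 6 arrays came from mice at 30°C (3) and at 4°C (3).

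All animals were male C57BL/6J mice, 7 to 8 weeks old at the start, with no transgene or deletion, housed 5 per cage under 12 hours of light and 12 hours of dark. Both groups had gone through 1 week at 18°C and 1 week at 4°C, followed by a week in which the days were at –5°C for 3 days and then at –10°C while the nights stayed at 4°C. The labels give 5 weeks of exposure and call the coldest group -20°C, and the alternation with –10°C by night comes from the study's methods. By this protocol the planned difference between the groups was the temperature by day during the final 3 weeks. The paper also reports more deaths, lower body weight and a smaller eWAT mass as the temperature fell. The part of these in the results below was not tested. No label names a mouse, litter or hybridization day, and the p-values below measure only the spread between these numbered samples. The time of day at which tissue was taken and the feeding state were not given in the sources used here.

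White adipocytes store triglyceride and release it as fatty acids when noradrenaline from sympathetic nerves raises cyclic AMP and activates protein kinase A, which also phosphorylates CREB, a transcription factor that binds the cyclic AMP response element in promoters. A group of receptors coupled to the inhibitory G protein, for lactate, ketone bodies, short-chain fatty acids and adenosine, lowers cyclic AMP again and restrains lipolysis. The same cells secrete leptin, the hormone that reports fat stores to the brain, and respond to glucocorticoids from the adrenal cortex. Around them lie vessels, macrophages and the progenitors that lay down collagen and give rise to new adipocytes.

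The adipocyte markers matched adipose tissue, and the depot was taken from the label eWAT. The summed signal (not log) of the 6 adipocyte markers measured was 20259 to 21497 on the –10°C arrays and 20019 to 22227 on the –10°C/–20°C arrays. None of the 6 was called, with 1 at an unadjusted p under 0.05. Among the 7 epididymis and testis markers measured, Lcn5, Lcn8 and Adam7 of the epididymis and Akap4 of sperm were below background on all 6 arrays. The others, Prm1, Prm2 and Tnp1, were each above it on at least 1 array. The summed signal of the 7 was 123 to 384 with –10°C and 104 to 213 with –10°C/–20°C, with none called. Its part in the other results was not tested. In contrast, the summed signal of the 5 skeletal muscle markers measured was 443 to 544 with –10°C and 299 to 379 with –10°C/–20°C, and Myl1, a myosin light chain, was the muscle marker called lower, a call that ended in 13 of the 21 alternatives other than the methods' t-test, centring and quantile normalization included. The part of the muscle signal in the other results was not tested. Background was set at a log2 signal of 4.52, the 95th percentile of the mean levels of 718 olfactory receptor genes. Each array had 10210 to 10541 genes above it.

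Of 14860 genes, 1064 (7.16%) differed between the groups at an adjusted p under 0.05 (limma, Benjamini-Hochberg adjustment over all genes), and these are referred to as called. Of these, 300 genes (2.02%) were higher and 764 genes (5.14%) were lower with –10°C/–20°C. The counts of the gene lists below are to be read beside these shares of all genes. The median difference was 0.76 on the log2 scale among genes called higher and -0.64 among genes called lower, and 90 higher and 118 lower genes changed by at least 2-fold. The log2 difference of the median gene was -0.07 in the deposited values, and this balance depended on how the arrays were scaled. After another quantile normalization the median gene was at 0.01 and the calls split into 451 higher and 446 lower, and after centring each array on its median it was at 0.11 and they split into 558 higher and 266 lower. In all 3 scalings 294 of the 300 higher genes and 261 of the 764 lower genes remained called. The larger number of decreases was thus found on the deposited scale and not on the other 2, and gene groups below are given with their counts after centring where those differ much. Without adjustment, 3078 of the 14860 genes had a p under 0.05.

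**Figure D1:**
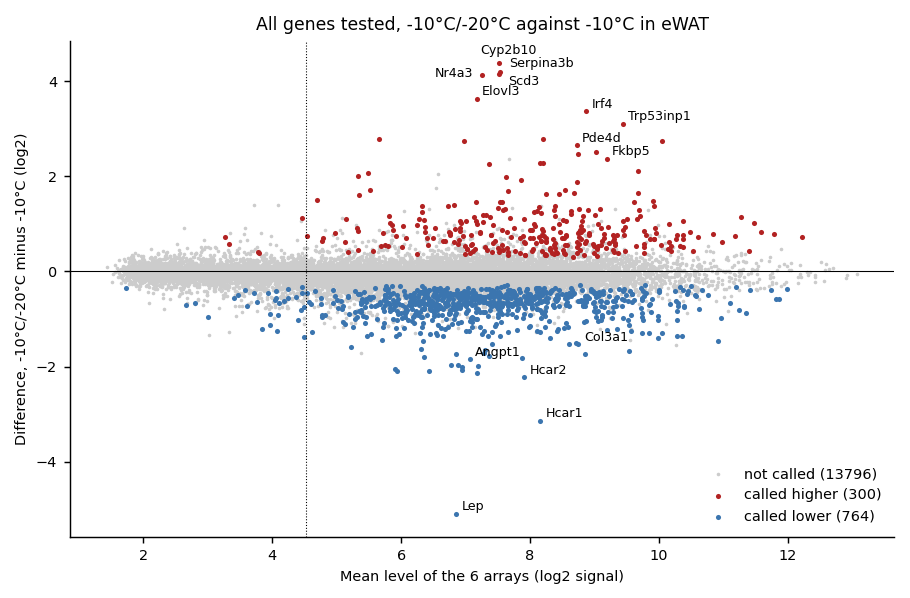
Each point is a gene, with its mean level over the 6 arrays (log2 signal, x axis) and its difference between –10°C/–20°C and –10°C (log2, y axis). The 300 genes called higher are red, the 764 called lower are blue and the rest are grey, the dotted line marks background at 4.52, and leptin lies apart at the bottom while Cyp2b10, Serpina3b, Scd3 and Nr4a3 lie at the top.

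The called genes set the –10°C/–20°C arrays apart from every other array of the series. The mean level of the 300 higher genes was 8.39, 8.66 and 8.57 on the –10°C/–20°C arrays and 7.47 to 7.73 on the 9 others. That of the 764 lower genes was 7.002, 6.86 and 6.93 against 7.56 to 7.78. These genes were chosen by this contrast, so their means describe them and are no further test. All 3 –10°C/–20°C arrays lay above all 9 other arrays for 446 genes (3.0%) and below all of them for 1271 genes (8.55%), among them 229 of the higher and 588 of the lower calls. By group means, 280 of the 300 higher genes had their highest level of the 4 groups with –10°C/–20°C, and 725 of the 764 lower genes had their lowest, against 3401 (22.9%) and 6136 (41.3%) of all 14860 genes.

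Within the groups, –10°C replicate 2 stood closest to the coldest mice. It was the –10°C array nearest the –10°C/–20°C mean for 64.7% of the higher and 56.2% of the lower genes, against 38.7% of all genes. Likewise –10°C/–20°C replicate 1 was the array of its group nearest to –10°C for 57.7% of the higher and 52.4% of the lower genes, against 35.5% of all genes. The number of calls was sensitive to single arrays. It was 392 without –10°C replicate 1, 526 without –10°C replicate 3, 423 without –10°C/–20°C replicate 2 and 565 without –10°C/–20°C replicate 3, while leaving out –10°C replicate 2 gave 837. The former 4 are called the decisive arrays below, since many calls of single genes also ended when any of them was left out alone. A fit on the 6 arrays alone called 658 genes. Of the 125 called genes that are named here by rule, 66 kept their call in all 21 alternative fits other than the t-test of the study's methods, which ended every one of the 125 after adjustment.

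Leptin showed the largest decrease of all genes. The Lep level (log2 signal) was 10.97, 6.89 and 10.35 with –10°C and 4.81, 3.94 and 4.16 with –10°C/–20°C. The groups did not overlap, –10°C replicate 2 lay between them, and 2 of the –10°C/–20°C arrays were below background. Lep fell by 5.10 ± 0.83 (SE) on the log2 scale (adjusted p = 0.0057). Its –10°C/–20°C mean of 4.30 was below background, so the measured 34.3-fold rests in part on values below background, and the –10°C mean was 29.5-fold above background. Its mean had been 10.78 at 30°C and 10.11 at 4°C, so that all 3 coldest arrays were below the 9 others. In contrast, adiponectin (Adipoq), at 12.19, 12.10 and 12.17 on the coldest arrays and just below all 9 others, differed by -0.12 ± 0.08 (adjusted p = 0.48), and resistin (Retn) by -0.13 ± 0.09 (adjusted p = 0.48). Among the 8 adipokines measured, Agt, which encodes angiotensinogen, rose by 0.75 ± 0.11 (adjusted p = 0.0035). Nampt, an enzyme of NAD synthesis that is also secreted, rose by 0.76 ± 0.18 (adjusted p = 0.031), a call that ended without any of the decisive arrays. With the replicate number as a block, 3 of the 8 adipokines were called lower in place of 1. The leptin receptor Lepr, chosen after its values were seen, was 4.07, 4.47 and 4.82 with –10°C and 4.88, 7.29 and 7.40 with –10°C/–20°C, with a difference of 2.07 ± 0.52 (adjusted p = 0.038). Its –10°C mean of 4.45 and 2 of the –10°C arrays were below background, and the –10°C/–20°C mean was 4.02-fold above background. The call was lost in the fit on the 6 arrays, without any array of the pair of groups except –10°C/–20°C replicate 1, without any 30°C array and without 4°C replicate 1.

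Of the 15 largest decreases, 5 were receptors for metabolites or lipid mediators. Hcar1, the lactate receptor that couples to the inhibitory G protein and restrains lipolysis, was at 9.91, 9.49 and 9.79 with –10°C and at 7.20, 5.88 and 6.68 with –10°C/–20°C. The groups were separated by more than their whole spread, and Hcar1 fell by 3.14 ± 0.30 (8.83-fold, adjusted p = 0.00044). Hcar2, the receptor for beta-hydroxybutyrate and niacin with the same coupling, was at 8.85, 9.14 and 9.10 with –10°C and at 7.77, 6.05 and 6.58 with –10°C/–20°C. It fell by 2.23 ± 0.36 (4.68-fold, adjusted p = 0.0057), with –10°C/–20°C replicate 1 the highest of the coldest arrays in both genes. Ffar2, the receptor for short-chain fatty acids, was at 6.85, 7.05 and 6.86 against 5.62, 4.18 and 4.83 and fell by 2.04 ± 0.29 (4.12-fold, adjusted p = 0.0027). The succinate receptor Sucnr1 fell by 1.97 ± 0.24 (3.91-fold) and Lpar4, a receptor for lysophosphatidic acid, fell by 1.96 ± 0.19 (3.89-fold). Each of these 5 receptors kept its call in all 21 alternative fits other than the methods' t-test.

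Among receptors for peptides, Oxtr and Npr3 fell and Mc5r rose. Oxtr, the oxytocin receptor, was at 8.04, 6.90 and 7.49 with –10°C and at 5.82, 5.11 and 5.20 with –10°C/–20°C, and fell by 2.10 ± 0.35 (4.30-fold, adjusted p = 0.006). Its mean had been 6.09 at 30°C and 7.88 at 4°C. Npr3, which clears natriuretic peptides, was at 10.40, 8.61 and 10.17 against 8.54, 7.53 and 7.87. Its groups came close without overlapping, at –10°C replicate 2 and –10°C/–20°C replicate 1, and it fell by 1.75 ± 0.39 (adjusted p = 0.024), a call lost without any of the decisive arrays. Mc5r, a melanocortin receptor that raises cyclic AMP, chosen after its values were seen, was at 6.92, 7.27 and 6.84 with –10°C and at 8.99, 9.55 and 9.32 with –10°C/–20°C, and rose by 2.28 ± 0.21 (4.86-fold, adjusted p = 0.0004).

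**Figure D2:**
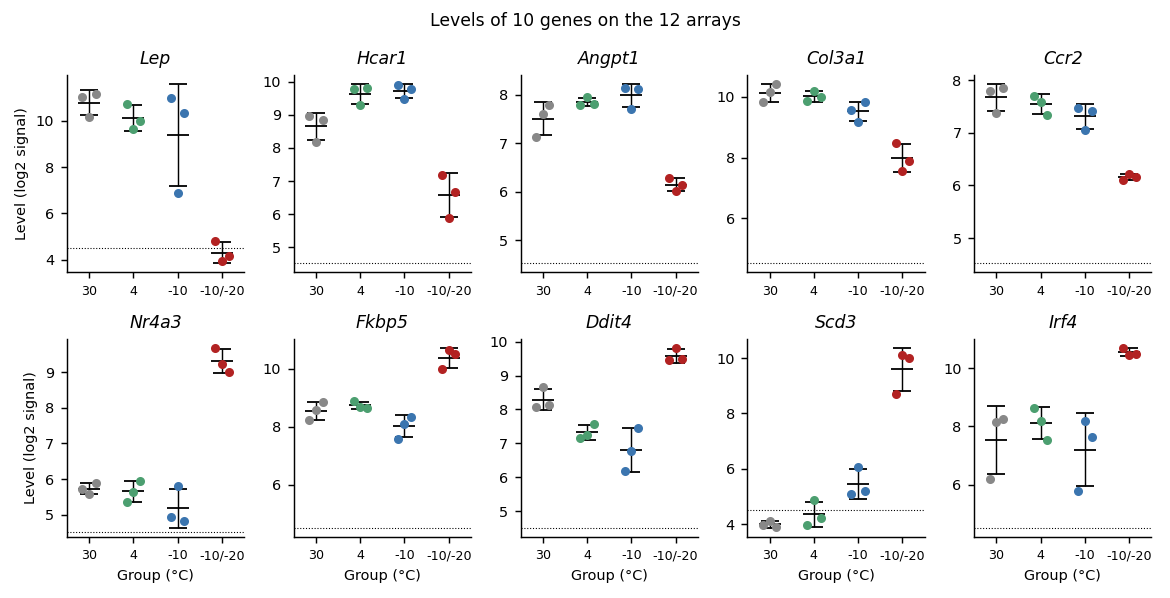
Levels (log2 signal) of 10 genes called at the last step, with each dot an array, the horizontal bar the group mean and the vertical bar its SD over 3 arrays, group by group from 30°C to the coldest. The dotted line is background at 4.52, and Lep drops to it in the coldest group while Nr4a3, Fkbp5 and Scd3 lie above the 9 other arrays there.

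The other genes among the 15 largest decreases were of several kinds. Bcl6, a transcriptional repressor, was at 8.89, 6.74 and 8.28 with –10°C and at 5.84, 6.06 and 5.82 with –10°C/–20°C. It fell by 2.06 ± 0.48 (adjusted p = 0.026), and this call ended when any of the 6 arrays except –10°C replicate 2 was left out and after quantile normalization. Slc5a3, the myo-inositol transporter, fell by 1.99 ± 0.25 (adjusted p = 0.0015). Lhfpl2 fell by 2.13, Lrrc39 fell by 2.08, A530053G22Rik fell by 2.02 and Morc4 fell by 1.79, each to a level below all 9 other arrays.

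The 15 largest increases held genes of several kinds. Cyp2b10, a cytochrome P450 that in mouse liver is the classic target of the nuclear receptor CAR, was at 5.23, 5.62 and 5.13 with –10°C and at 7.98, 10.46 and 10.67 with –10°C/–20°C. It rose by 4.38 ± 0.55 (20.8-fold, adjusted p = 0.0015), the largest increase of all genes, with replicate 1 the lowest of the coldest arrays. Scd3, a stearoyl-CoA desaturase, was at 5.08, 6.07 and 5.20 against 8.71, 10.11 and 9.99 and rose by 4.15 ± 0.37 (17.7-fold, adjusted p = 0.0004). Its means had been 3.99 at 30°C and 4.35 at 4°C, both below background. Serpina3b, a serine protease inhibitor, rose by 4.19 ± 0.45 (18.2-fold, adjusted p = 0.00061). Cyp2b10, Scd3 and Serpina3b belong to families of closely related copies, and whether their probes tell these apart was not tested.

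Mfsd2a, a transporter of lysophosphatidylcholine, was below background on all 9 other arrays, with 4.21, 4.16 and 4.39 at –10°C, and reached 5.82, 7.92 and 7.40 with –10°C/–20°C. The increase was at least 5.77-fold against background (measured log2 difference 2.79 ± 0.39, adjusted p = 0.0025). Gpcpd1, which cleaves glycerophosphocholine, rose by 2.74 ± 0.35 (6.66-fold, adjusted p = 0.0017). Trp53inp1, a p53-induced gene that takes part in autophagy, was at 7.43, 8.23 and 8.02 against 10.09, 11.60 and 11.28 and rose by 3.10 ± 0.34 (8.57-fold, adjusted p = 0.00078). Slc7a8, a transporter of neutral amino acids, rose by 2.51 ± 0.26 (5.71-fold). The growth arrest gene Gadd45g rose by 2.46 ± 0.40 (5.5-fold), and its 30°C mean of 8.77 lay between those of –10°C and –10°C/–20°C. Apoc3, an apolipoprotein chosen after its values were seen, was at 6.58, 7.64 and 6.96 against 8.06, 10.08 and 9.91 (difference 2.29 ± 0.47, adjusted p = 0.015), a call lost without any of the decisive arrays.

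Nr4a3, an orphan nuclear receptor and immediate-early gene induced by cyclic AMP in many tissues, had the smallest adjusted p together with Niban2, which was chosen after its values were seen. Nr4a3 was at 4.93, 5.81 and 4.82 with –10°C and at 9.68, 9.23 and 9.01 with –10°C/–20°C. It rose by 4.12 ± 0.26 (17.4-fold, adjusted p = 4.1e-05), and its means had been 5.74 at 30°C and 5.65 at 4°C, so that all 3 coldest arrays lay above the 9 others. Niban2 was at 6.74, 6.89 and 7.05 against 8.59, 8.94 and 8.93 and rose by 1.93 ± 0.12 (adjusted p = 4.1e-05). The other immediate-early genes were not called. Of 21 measured, Nr4a3 was the gene called, the median difference was 0.25, and Fos was at 5.75, 5.80 and 7.01 against 5.87, 7.19 and 7.81 (adjusted p = 0.65), while Nr4a1 differed by 0.30 ± 0.62 (adjusted p = 0.87).

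The RefSeq promoter windows of 4 genes called higher are printed because these windows hold the letters of the cyclic AMP response element (TGACGTCA, or its first 5 letters TGACG) or of the E-box that clock factors bind (CACGTG). Each holds the 250 bases before the annotated start (GRCm38.p6, 5′ to 3′ on the strand of the gene), and capitals mark these letters on either strand, with CGTCA being TGACG read on the other strand. Each TGACGTCA also counts as a TGACG on each strand. The windows are Nr4a3, chr4:48045055-48045304 (plus strand), Retreg1, chr15:25843048-25843297 (plus strand, the first of 4 listed starts), Hlf, chr11:90390918-90391167 (minus strand), and Per1, chr11:69098699-69098948 (plus strand, the first of 2 listed starts).
Nr4a3: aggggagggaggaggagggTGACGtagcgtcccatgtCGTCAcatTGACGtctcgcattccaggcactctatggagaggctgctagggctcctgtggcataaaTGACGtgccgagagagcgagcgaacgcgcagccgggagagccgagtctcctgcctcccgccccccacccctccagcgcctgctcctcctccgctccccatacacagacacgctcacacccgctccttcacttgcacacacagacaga
Retreg1: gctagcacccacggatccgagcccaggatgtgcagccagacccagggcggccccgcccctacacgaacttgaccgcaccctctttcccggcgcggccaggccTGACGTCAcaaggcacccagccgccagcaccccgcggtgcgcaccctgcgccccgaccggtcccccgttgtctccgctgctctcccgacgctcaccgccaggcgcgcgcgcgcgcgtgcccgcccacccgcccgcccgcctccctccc
Hlf: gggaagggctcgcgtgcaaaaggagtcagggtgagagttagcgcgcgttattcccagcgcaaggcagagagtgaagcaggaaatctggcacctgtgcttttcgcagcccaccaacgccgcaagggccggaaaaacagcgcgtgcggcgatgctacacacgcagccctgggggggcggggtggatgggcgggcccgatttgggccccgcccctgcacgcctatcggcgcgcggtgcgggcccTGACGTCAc
Per1: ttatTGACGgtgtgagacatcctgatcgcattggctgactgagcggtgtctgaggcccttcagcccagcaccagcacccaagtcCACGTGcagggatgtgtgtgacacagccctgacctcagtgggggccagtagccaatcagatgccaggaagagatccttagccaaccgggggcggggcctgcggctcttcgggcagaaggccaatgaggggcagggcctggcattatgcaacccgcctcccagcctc
The Nr4a3 window holds 4 TGACG matches, all in the part farther from the start, and Retreg1 and Hlf hold 1 full TGACGTCA each. TGACGTCA is found in 508 of 32851 promoter windows of this length (1.55%), in 2.32% of the 11869 tested genes with a window, in 10 of 243 genes called higher and in 12 of 594 called lower. TGACG is found in 17.8% of windows, in 25.2% of tested genes, in 80 of 243 genes called higher (32.9%) and in 139 of 594 called lower (23.4%). CACGTG is found in 6.02% of windows, in 8.64% of tested genes, in 26 of 243 genes called higher and in 59 of 594 called lower. These are matches of letters, given as a description with no test.

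Genes of cyclic AMP signalling were called in both directions, where 2.02% of all genes rose and 5.14% fell. Among 23 measured genes for adrenergic receptors, protein kinase A, adenylyl cyclases, phosphodiesterases and the opposing receptors, 2 rose and 5 fell (median -0.06). Pde4d, a phosphodiesterase that degrades cyclic AMP, was at 6.99, 8.25 and 6.96 with –10°C and at 9.85, 10.07 and 10.23 with –10°C/–20°C. It rose by 2.65 ± 0.28 (6.28-fold, adjusted p = 0.00062), with –10°C replicate 2 the closest of its group. Adenylyl cyclase Adcy3, which makes cyclic AMP, rose by 1.05 ± 0.14 (adjusted p = 0.0021), and Prkaca, the catalytic subunit of protein kinase A, and Pde7a fell by 0.47 and 0.87. These 3, named to complete the count after their values were seen, stand beside Hcar2, Ffar2 and Npr3 described above. After centring, 6 members were called higher and 4 lower, and without –10°C replicate 1 or –10°C/–20°C replicate 2 or 3, 3 were called lower. Prkaca was among the calls lost after centring. Crem, a target and modulator of CREB also chosen after its values were seen, rose by 0.71 ± 0.17 (adjusted p = 0.032), a call lost without any array of these groups except –10°C replicate 2.

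Genes known to be induced by glucocorticoids were called in one direction. Of 12 measured, 7 were called higher and none lower, against 2.02% and 5.14% of all genes. The median difference was 0.82 against -0.07 for all genes. The count was 6 to 8 whichever array was left out and 8 after centring or quantile normalization. On all 3 –10°C/–20°C arrays, 4 of the 12 lay above all 9 other arrays, as did 3.0% of all genes. Fkbp5, a co-chaperone of the glucocorticoid receptor and one of its best-known targets, was at 7.59, 8.10 and 8.34 with –10°C and at 9.98, 10.63 and 10.52 with –10°C/–20°C. It was above all 9 other arrays and rose by 2.37 ± 0.22 (5.15-fold, adjusted p = 0.0004). Tsc22d3, which encodes the glucocorticoid-induced leucine zipper, was at 7.64, 7.42 and 7.89 against 8.91, 9.55 and 9.34 and rose by 1.62 ± 0.18 (adjusted p = 0.00067). Ddit4, an inhibitor of mTORC1 that is also a stress response gene, was at 6.18, 6.78 and 7.46 against 9.46, 9.82 and 9.48 and rose by 2.78 ± 0.28 (6.85-fold, adjusted p = 0.00049). Pdk4 and Per1 rose by 1.47 and 0.85, and the metallothioneins Mt1 and Mt2, named to complete the count, rose by 0.72 and 1.03.

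The levels of these genes at the warmer steps took another course. In 4°C against 30°C, which shares no array with the last step, none of the 12 glucocorticoid-responsive genes was called higher and 3 were called lower (median -0.51). In –10°C against 4°C, which shares the –10°C arrays, none was called and the median was -0.41. By the median gene, the last step was thus measured from –10°C levels lower than those at 4°C. Ddit4 was at a mean of 8.29 at 30°C and 7.33 at 4°C. Nr3c1, the glucocorticoid receptor itself, chosen after its values were seen, was at 9.34, 9.23 and 9.35 with –10°C and at 8.48, 8.63 and 8.81 with –10°C/–20°C, and fell by 0.67 ± 0.14 (adjusted p = 0.016), a call lost without –10°C replicate 1 or 3 or –10°C/–20°C replicate 2. Tat, tyrosine aminotransferase, a glucocorticoid target in liver chosen in the same way, was at 4.57, 4.75 and 4.68 against 5.60, 7.17 and 6.37 and rose by 1.71 ± 0.31 (adjusted p = 0.0097). Hsd11b1, which regenerates active glucocorticoid within the cell, differed by 0.02 ± 0.16 (adjusted p = 0.96).

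Clock genes were called as well. Of 14 measured, 6 rose and 2 fell, against 2.02% and 5.14% of all genes, and the median difference was 0.74. Cry1, a repressor within the core clock, was at 6.01, 6.13 and 5.73 with –10°C and at 6.59, 6.90 and 6.87 with –10°C/–20°C, and rose by 0.83 ± 0.12 (adjusted p = 0.0036). Per1 rose by 0.85 ± 0.15 (adjusted p = 0.0085) to levels that its 30°C mean of 8.50 and 4°C mean of 8.40 nearly matched. The output transcription factors Hlf and Tef each rose by 0.77, and Per3 and Rora, like Tef named to complete the count, each rose by 0.74. In the other direction, Npas2, an activator of the core loop, was at 7.50, 7.42 and 6.72 against 5.74, 5.97 and 6.36 (difference -1.19 ± 0.31, adjusted p = 0.043), and its close relative Clock, named to complete the count, fell by 0.49. Both of these decreases ended after either rescaling and with the replicate number as a block.

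Several clock genes also varied widely between arrays of a group. Dbp, an output gene with a strong daily rhythm chosen after its values were seen, was at 7.49, 8.80 and 9.21 with –10°C and at 9.76, 9.35 and 8.60 with –10°C/–20°C, so that the groups overlapped (adjusted p = 0.33). Arntl, which peaks opposite to it, was at 7.30, 6.68 and 6.58 against 4.52, 5.69 and 6.49, without overlap but not called (adjusted p = 0.10). The number of clock genes called higher was 2 without –10°C/–20°C replicate 2 and 3 in the fit on the 6 arrays. In 4°C against 30°C, 7 of the 14 were called higher and 3 lower, with Dbp at a mean of 7.38 at 30°C and 10.85 at 4°C.

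**Figure D3:**
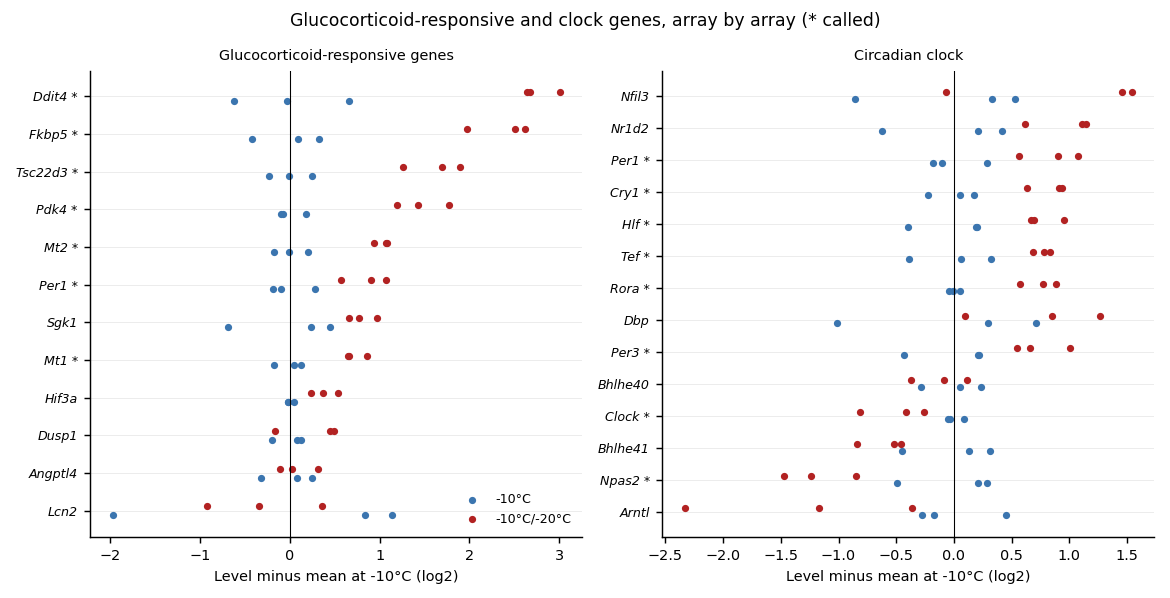
Glucocorticoid-responsive and clock genes, with the level on each array minus the –10°C mean of that gene (log2, x axis), –10°C arrays in blue, –10°C/–20°C arrays in red, and called genes starred. The red points of Ddit4, Fkbp5 and Tsc22d3 lie to the right of all blue points, while those of Dbp lie among them and those of Arntl, not called, lie to their left.

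Insulin and stress signalling genes followed. Of 17 insulin and IGF signalling genes measured, 5 rose and 2 fell (median 0.01), against 2.02% and 5.14% of all genes. Foxo1, a transcription factor that insulin keeps out of the nucleus, was at 9.13, 8.95 and 9.14 with –10°C and at 9.82, 9.96 and 9.72 with –10°C/–20°C, and rose by 0.76 ± 0.10 (adjusted p = 0.0021), and Foxo3 rose by 0.60 ± 0.10. Irs3, an insulin receptor substrate of rodent adipocytes, was at 7.49, 6.87 and 6.98 against 5.68, 5.72 and 5.97 and fell by 1.32 ± 0.20 (adjusted p = 0.0038). Igfbp3, a binding protein for IGFs, rose by 1.25 ± 0.33 (adjusted p = 0.044), a call that ended when any of 10 of the 12 arrays was left out. The list held 2 increases in the fit on the 6 arrays and without any of the decisive arrays, and 3 without 4°C replicate 1.

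Among 22 genes of the integrated and endoplasmic reticulum stress responses, 4 rose and 3 fell (median -0.03), against 2.02% and 5.14% of all genes. Chac1, which degrades glutathione and is a target of ATF4, was at 6.41, 6.53 and 6.98 with –10°C and at 8.34, 8.68 and 8.84 with –10°C/–20°C, and rose by 1.98 ± 0.19 (3.95-fold, adjusted p = 0.00046). Sesn2, a stress-induced inhibitor of mTORC1, rose by 1.10 ± 0.25 (adjusted p = 0.024), a call lost without any of the decisive arrays or –10°C/–20°C replicate 1. Edem1, which sends misfolded proteins to degradation, fell by 0.76 ± 0.13 (adjusted p = 0.0068). Without any of the decisive arrays the list held 2 increases and 1 decrease. Retreg1, a receptor for the autophagy of the endoplasmic reticulum, was at 4.75, 6.31 and 5.75 against 7.62, 8.62 and 8.78 and rose by 2.74 ± 0.50 (adjusted p = 0.0097). Of 16 cell cycle arrest and p53 target genes, 3 rose, namely Gadd45g, Cdkn1a (1.23 ± 0.22) and Sesn1 (1.06 ± 0.20, lost without –10°C/–20°C replicate 2), and Cdkn2c, an inhibitor of CDK4, fell by 0.98 ± 0.17. Bnip3, a mitophagy receptor in the list of hypoxia-responsive genes, rose by 0.83 ± 0.12 (adjusted p = 0.0027). Egln1, the oxygen sensor of that pathway, fell by 0.46 ± 0.11, a call that ended after centring and without any of the decisive arrays.

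**Figure D4:**
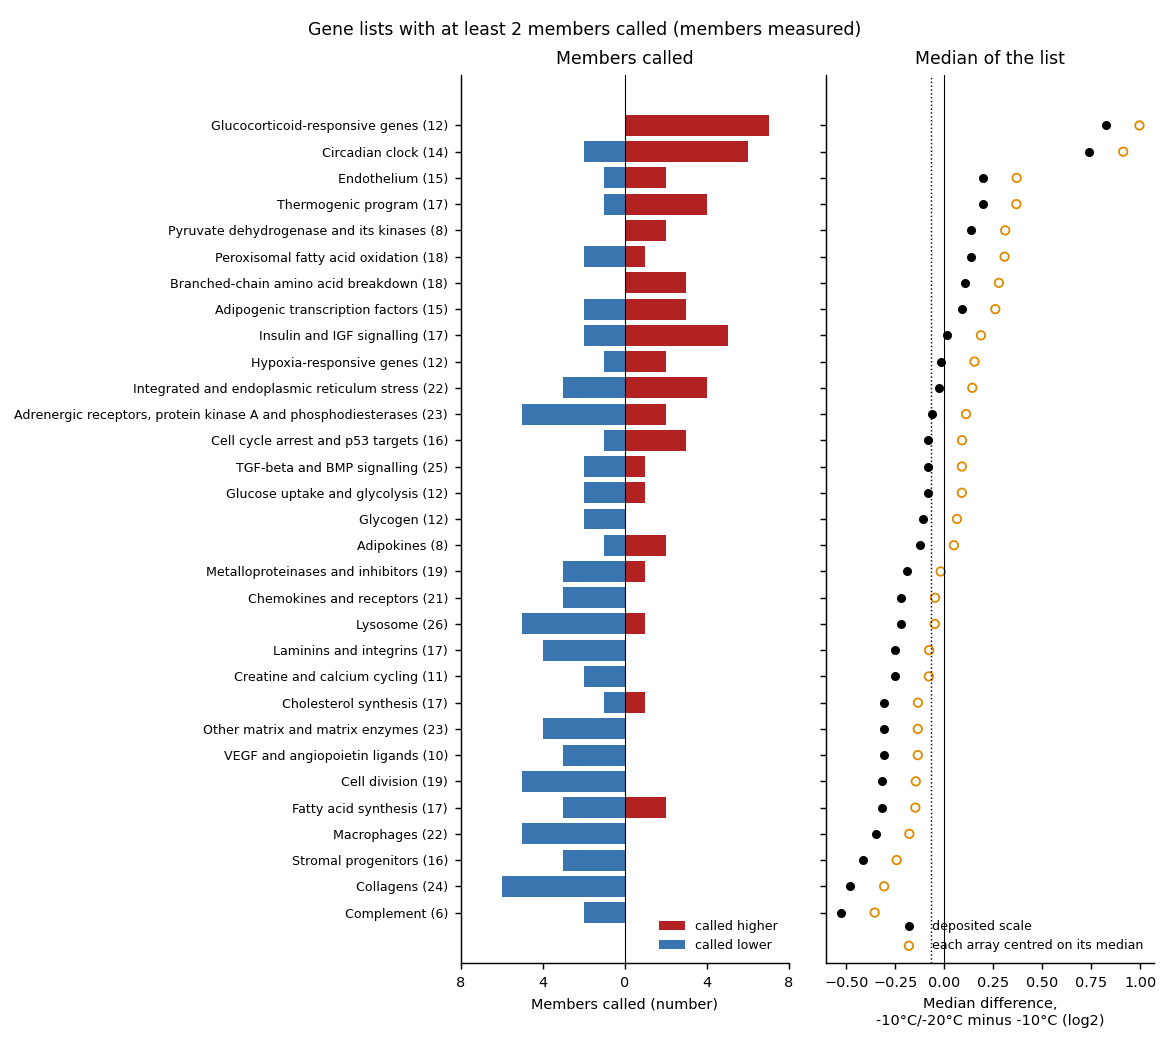
Gene lists with at least 2 members called, with the number measured in parentheses, the members called higher (red, right) and lower (blue, left), and on the right the median difference (log2) on the deposited scale (filled) and after centring each array (open). The dotted line is the all-gene median of -0.07, and glucocorticoid-responsive and clock genes lie farthest to the right while collagens and complement lie farthest to the left.

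Of 17 genes of the brown fat program measured, 4 rose and 1 fell, against 2.02% and 5.14% of all genes. The median difference was 0.20. Elovl3, a cold-induced elongase of brown fat that makes very long fatty acids, was at 4.99, 7.14 and 3.96 with –10°C and at 7.67, 9.63 and 9.66 with –10°C/–20°C. It rose by 3.62 ± 0.73 (12.3-fold, adjusted p = 0.015), but –10°C was itself spread by over 3 log2 units. The SE also draws on the 30°C and 4°C arrays, on all of which Elovl3 was below background. Its call ended in the fit on the 6 arrays and without any of the decisive arrays. Irf4, a transcription factor of thermogenesis in brown adipocytes that macrophages and lymphocytes also express, was at 5.77, 8.17 and 7.64 against 10.71, 10.46 and 10.50 and rose by 3.37 ± 0.63 (10.3-fold, adjusted p = 0.011). Plin5, a lipid droplet protein of oxidative cells, rose by 0.99 ± 0.19, and the potassium channel Kcnk3 rose by 0.68 ± 0.14. Ebf2, a factor of brown and beige precursors, fell by 0.65 ± 0.13 (adjusted p = 0.016). This call ended after centring, with the replicate block on the 6 arrays, and without –10°C replicate 1 or 3 or –10°C/–20°C replicate 3. The list held 1 increase without –10°C/–20°C replicate 2 and 2 without –10°C replicate 3.

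Uncoupling protein 1 itself was at 3.92, 3.91 and 3.91 with –10°C and at 4.85, 4.01 and 4.25 with –10°C/–20°C. Ucp1 was thus above background on a single array of the 6, and the difference of 0.45 ± 0.17 was not called (adjusted p = 0.15). Dio2, which activates thyroid hormone, was at 6.09, 7.46 and 4.81 against 6.34, 6.47 and 6.14 (adjusted p = 0.89). Cidea was at 7.67, 7.22 and 7.77 against 7.18, 8.44 and 8.90 (adjusted p = 0.39), and Cox8b, a subunit of cytochrome c oxidase in brown fat and muscle, differed by -0.17 ± 0.30 (adjusted p = 0.85). The means of Cidea and Cox8b had been 4.76 and 5.58 at 30°C. Ppargc1a differed by 0.33 ± 0.43 (adjusted p = 0.78) and Prdm16 by -0.13 ± 0.10 (adjusted p = 0.58). No row with a single symbol stood for Cox7a1, and it was not analysed here.

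Lipid synthesis genes were called in both directions, where 2.02% of all genes rose and 5.14% fell. Of 17 fatty acid synthesis genes, 2 rose and 3 fell (median -0.32, and -0.15 after centring, with 3 higher and 1 lower). Scd2, a desaturase, was at 11.33, 10.98 and 10.81 with –10°C and at 9.89, 9.61 and 9.52 with –10°C/–20°C, and fell by 1.36 ± 0.28 (adjusted p = 0.015), opposite to Scd3. Srebf1, the transcription factor of lipogenesis, was at 9.30, 8.63 and 9.35 against 8.03, 7.90 and 8.13 and fell by 1.07 ± 0.23 (adjusted p = 0.018), a call that ended after centring. Pnpla3, a lipogenic target of it, fell by 1.30 ± 0.29 (adjusted p = 0.024), likewise lost after centring, while Acacb, the acetyl-CoA carboxylase that regulates mitochondrial fatty acid uptake, rose by 0.81 and was named to complete the count. Without –10°C replicate 1 or –10°C/–20°C replicate 2 none of the 3 decreases was called, and without –10°C/–20°C replicate 3 only 1 was. In 4°C against 30°C, 10 of these 17 genes were called higher, and the levels of Scd2 ran from 8.90 at 30°C through 10.37 at 4°C to the values above.

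Lpin1, a phosphatidate phosphatase that is also a coactivator of fatty acid oxidation, was at 10.56, 10.78 and 10.78 with –10°C and at 11.97, 11.86 and 11.73 with –10°C/–20°C, and rose by 1.15 ± 0.11 (adjusted p = 0.0004). It was the gene called among 13 for triglyceride synthesis. The fatty acid transporter Slc27a1 was at 11.04, 11.49 and 11.01 against 11.998, 12.009 and 12.006 and rose by 0.82 ± 0.12 (adjusted p = 0.0027). Of 17 cholesterol synthesis genes, Cyp51 rose by 1.29 ± 0.33 (adjusted p = 0.04) and Sc5d fell by 1.02 ± 0.20 (adjusted p = 0.014), although their enzymes act in the same pathway. The shares of all genes were 2.02% higher and 5.14% lower. Cyp51 lost its call when any of 7 arrays was left out, and Sc5d after centring and without any of the decisive arrays.

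In contrast, no gene on the lists of lipolysis or mitochondrial oxidation was called at the last step, where 7.16% of all genes were called. The droplet gene Plin5, called higher, was counted in the brown fat list, and Lipe, Acadl and Hadhb were not analysed here. After centring, 1 gene of mitochondrial fatty acid oxidation and 1 of the respiratory chain were called higher. With the replicate number as a block, 1 gene of triglyceride breakdown and the lipid droplet was called higher. None of the 13 genes of triglyceride breakdown and the lipid droplet passed limma's adjusted threshold, with a median of -0.06, while 6 had an unadjusted p under 0.05 (2 by the methods' t-test). Over all 14860 genes, 3078 had an unadjusted p under 0.05 in limma and 2733 in that t-test. Pnpla2, the first lipase of lipolysis, was at 11.90, 12.04 and 11.91 with –10°C and at 12.25, 12.08 and 12.08 with –10°C/–20°C (adjusted p = 0.25), and Lpl differed by 0.02 ± 0.09 (adjusted p = 0.93). None of the 15 genes of mitochondrial fatty acid oxidation (median 0.05), the 45 of the respiratory chain and ATP synthase (median -0.05) and the 12 of the tricarboxylic acid cycle (median -0.03) was called either, with 5, 5 and 2 genes at an unadjusted p under 0.05 in limma and 5, 8 and 3 in the methods' t-test. In 4°C against 30°C, these last 3 lists held 5, 8 and 2 genes called higher. Among 18 peroxisomal genes, Abcd2, a fatty acid transporter of the peroxisome, was at 11.57, 11.37 and 11.42 against 10.85, 10.42 and 10.16 and fell by 0.98 ± 0.15 (adjusted p = 0.0043), Crot, which exports shortened fatty acids as carnitine esters, fell by 0.65 ± 0.12, and Hacl1 rose by 0.99 ± 0.26, a call lost without any of 10 arrays.

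Of 8 genes of pyruvate dehydrogenase and its kinases measured, 2 rose and none fell, against 2.02% and 5.14% of all genes. Pdk4, a kinase that shuts pyruvate dehydrogenase and so spares glucose, was at 8.78, 8.80 and 9.06 with –10°C and at 10.07, 10.30 and 10.66 with –10°C/–20°C, and rose by 1.47 ± 0.15 (2.76-fold, adjusted p = 0.00053). Pdk2, a second kinase of this enzyme, was at 9.26, 9.70 and 9.46 against 10.42, 10.42 and 10.34 and rose by 0.92 ± 0.11 (adjusted p = 0.0012). For the breakdown of branched-chain amino acids, 3 of 18 genes rose, Ppm1k (1.33 ± 0.30), which activates the branched-chain dehydrogenase, Bcat2 (0.69 ± 0.13) and Dbt (0.51 ± 0.11). None of these 3 was called without –10°C replicate 1 or without –10°C/–20°C replicate 2, and 1 was without either of the other decisive arrays. The glucose transporter Slc2a1 rose by 0.62 ± 0.15, a call lost without any of the decisive arrays, while the phosphofructokinases Pfkp and Pfkl fell by 0.57 and 0.55, both lost after centring. Gamt, the last enzyme of creatine synthesis, was at 7.30, 6.71 and 7.18 against 6.16, 5.30 and 5.36 and fell by 1.46 ± 0.24 (adjusted p = 0.0063).

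Of 15 adipogenic transcription factors measured, 3 rose and 2 fell, against 2.02% and 5.14% of all genes. Cebpb, which acts early in adipogenesis and in the response to cyclic AMP, was at 6.89, 6.79 and 6.74 with –10°C and at 7.99, 8.06 and 7.78 with –10°C/–20°C, and rose by 1.14 ± 0.19 (adjusted p = 0.0067). Klf15, a regulator of amino acid and lipid use, was at 7.66, 8.04 and 7.72 against 9.14, 9.04 and 8.74 and rose by 1.17 ± 0.18 (adjusted p = 0.0044). Ppara, the nuclear receptor of fatty acid oxidation, rose by 0.80 ± 0.16 (adjusted p = 0.012), a call lost without –10°C replicate 1. Ebf1, a factor of the adipocyte lineage, was at 10.20, 10.08 and 10.21 against 9.49, 9.33 and 9.08 and fell by 0.87 ± 0.11 (adjusted p = 0.002), and Rxrg, named to complete the count, fell by 0.75, a call lost after centring and without any of the decisive arrays.

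Some collagen genes of the stroma fell, where 5.14% of all genes fell. Fewer cells of a type and less RNA per cell cannot be told apart in whole tissue. Of 24 collagen genes measured, 6 fell and none rose (median -0.48, and -0.31 after centring with 5 called). Col3a1, a fibrillar collagen, was at 9.57, 9.17 and 9.82 with –10°C and at 8.49, 7.57 and 7.89 with –10°C/–20°C, and fell by 1.54 ± 0.24 (2.9-fold, adjusted p = 0.0047). Its means of 10.14 at 30°C and 10.02 at 4°C lay above both. Col15a1, a collagen of basement membrane zones, was at 9.14, 8.22 and 8.99 against 7.94, 5.97 and 6.96 and fell by 1.82 ± 0.40 (adjusted p = 0.021), and the fibrillar Col1a1 and Col1a2 fell by 1.18 ± 0.28 and 0.83 ± 0.19. The count for collagens varied with the arrays: it was 3 without –10°C replicate 1, 1 without –10°C replicate 3, 1 without –10°C/–20°C replicate 2, 2 without –10°C/–20°C replicate 3, 10 without –10°C/–20°C replicate 1 and 10 with the replicate number as a block. Col3a1 alone of these 4 kept its call in all of these fits.

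Other matrix genes were called in smaller numbers, where 5.14% of all genes fell. Lama4, a laminin chain of vessel and adipocyte basement membranes, was at 9.54, 9.47 and 9.50 with –10°C and at 8.87, 8.78 and 8.93 with –10°C/–20°C, and fell by 0.65 ± 0.08 (adjusted p = 0.002). Of 17 laminin and integrin genes, 4 fell, with Nid1 (-0.73), Nid2 (-0.62) and Itgb5 (-0.65) lost after centring and without any of the decisive arrays. Of 23 other matrix genes, 4 fell and 1 of them after centring, among them Vcan (-1.20 ± 0.30, adjusted p = 0.035) and Loxl2 (-0.78 ± 0.19, adjusted p = 0.036). Loxl2 and Sparc, another of the 4, lost their calls with the replicate number as a block, and none of the 4 was called without 4°C replicate 1, –10°C replicate 3 or –10°C/–20°C replicate 2 or 3. The matrix proteases Adamts5 and Adamts12 fell by 1.07 ± 0.18 (adjusted p = 0.0063) and 0.66 ± 0.11 (adjusted p = 0.0051), and Timp3, an inhibitor of such proteases, was at 9.72, 9.97 and 10.09 against 10.83, 10.54 and 10.44 and rose by 0.68 ± 0.13 (adjusted p = 0.011), a call lost without –10°C replicate 1.

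The summed signal of 7 stromal progenitor markers was 7536 to 8839 with –10°C and 6433 to 7756 with –10°C/–20°C, and its part in the matrix results was not tested. Of 16 genes in the longer progenitor list, 3 fell (median -0.42) and 1 of these after centring, while 5 were called with the replicate number as a block. Dpt, dermatopontin, was at 10.75, 10.49 and 10.82 against 9.93, 9.71 and 9.94 and fell by 0.83 ± 0.15 (adjusted p = 0.0092). Without –10°C replicate 1 or 3 or –10°C/–20°C replicate 3 it was the progenitor gene still called.

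The secreted factors Angpt1 and Fgf10 kept their calls in all 21 alternatives other than the methods' t-test. Angpt1, the ligand that activates the endothelial receptor Tie2 and steadies vessels, was at 8.13, 7.71 and 8.12 with –10°C and at 6.27, 6.01 and 6.13 with –10°C/–20°C. It fell by 1.85 ± 0.17 (3.61-fold, adjusted p = 0.0004), the coldest arrays lying close to each other. Fgf10, a growth factor of mesenchymal cells that promotes adipogenesis, was at 8.04, 8.22 and 8.14 against 6.65, 6.16 and 6.47 and fell by 1.71 ± 0.14 (3.27-fold, adjusted p = 0.00031). Nrp1, a coreceptor for VEGF and semaphorins, fell by 0.63 ± 0.11, so that 3 of 10 measured VEGF, angiopoietin and related genes fell (median -0.31), and 3 or 4 were called whichever array was left out. Hgf, hepatocyte growth factor, chosen after its values were seen, was at 6.08, 5.77 and 6.21 against 4.62, 4.27 and 4.40 and fell by 1.59 ± 0.18 (adjusted p = 0.00084), with 2 of the coldest arrays and their mean of 4.43 below background, over which the –10°C mean was 2.83-fold. Wnt5a fell by 1.09 ± 0.24 and Fstl1 by 1.02 ± 0.20, both lost without –10°C/–20°C replicate 2 and in the fit on the 6 arrays, and Wnt5a also without –10°C replicate 1 or 3 or –10°C/–20°C replicate 1. Ntrk2, a receptor for the neurotrophin BDNF, was at 10.12, 9.74 and 10.02 against 9.04, 8.49 and 8.73 and fell by 1.21 ± 0.15 (adjusted p = 0.0015).

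The summed signal of endothelial markers overlapped between the groups. The 7 markers summed to 3792 to 4514 with –10°C and 3835 to 4295 with –10°C/–20°C. None was called by limma, with 2 at an unadjusted p under 0.05. In the list of 15 endothelial genes (median 0.20), 2 rose and 1 fell, against 2.02% and 5.14% of all genes. An unadjusted p under 0.05 was found for 8 of the 15 in limma and 6 in the methods' t-test. The apelin receptor Aplnr was at 6.98, 6.61 and 7.22 against 5.70, 5.67 and 5.53 and fell by 1.30 ± 0.18 (adjusted p = 0.0022), whereas the VEGF receptor Flt1 and the junction protein Esam rose by 0.40 ± 0.09 and 0.36 ± 0.08. Both increases ended in the fit on the 6 arrays and without –10°C replicate 3 or –10°C/–20°C replicate 2. Mcam, an adhesion molecule of pericytes and endothelium, fell by 1.02 ± 0.18 (adjusted p = 0.0088).

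A subset of macrophage genes was lower, where 5.14% of all genes fell. Of 22 measured, 5 fell and none rose (median -0.35), with 5 to 7 called whichever array was left out and 5 lower and 1 higher after centring. Cd83, an activation marker that mature dendritic cells also carry, was at 6.34, 6.50 and 6.42 with –10°C and at 4.94, 4.77 and 5.23 with –10°C/–20°C, and fell by 1.44 ± 0.13 (2.71-fold, adjusted p = 0.0004). Mgl2, a lectin of tissue macrophages and dendritic cells, was at 7.86, 7.62 and 8.24 against 6.77, 6.67 and 6.51 and fell by 1.25 ± 0.22 (adjusted p = 0.0078). Ccr2, the chemokine receptor of monocytes, was at 7.48, 7.04 and 7.42 against 6.09, 6.21 and 6.16 and fell by 1.16 ± 0.16 (adjusted p = 0.0021). Folr2, a folate receptor of resident macrophages, was at 8.72, 8.67 and 8.59 against 7.85, 7.67 and 7.54 and fell by 0.97 ± 0.11 (adjusted p = 0.00075), and Aif1, named to complete the count, fell by 0.90.

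The summed signal of 8 general macrophage markers was 1905 to 2260 with –10°C and 1688 to 1985 with –10°C/–20°C, the ranges overlapped and none of the 8 was called by limma, although 6 had an unadjusted p under 0.05. The part of this signal in the results above was not tested. It had been 3129 to 4014 at 30°C and 2652 to 2734 at 4°C, and in 4°C against 30°C 5 of the 22 genes on the longer list were called lower. Fcrls, Clec7a and Retnla, genes of resident or alternatively activated macrophages chosen after their values were seen, fell by 1.63 ± 0.25, 1.32 ± 0.21 and 1.30 ± 0.25, the last lost without –10°C/–20°C replicate 2. In contrast, Cd163 was at 7.67, 7.69 and 7.59 against 8.04, 7.85 and 8.23 (adjusted p = 0.13).

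**Figure D5:**
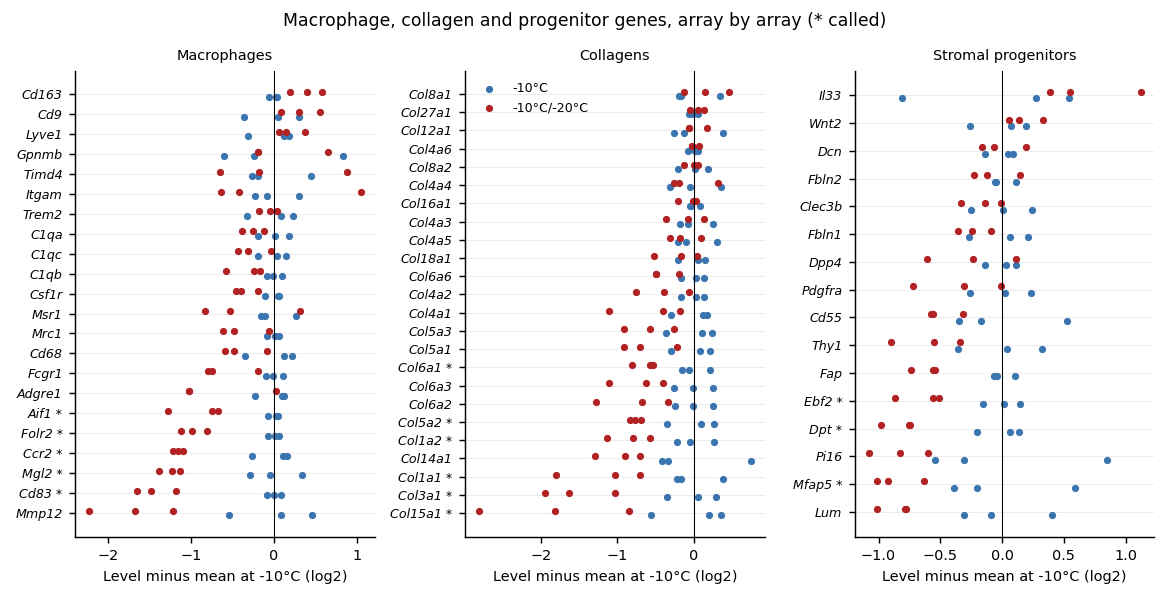
Macrophage, collagen and stromal progenitor genes, with the level on each array minus the –10°C mean of that gene (log2, x axis), –10°C arrays in blue, –10°C/–20°C arrays in red, and called genes starred. Called members such as Cd83, Ccr2, Col3a1 and Dpt have all 3 red points left of the blue ones, and members such as Itgam and Col8a1 do not.

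Among other immune genes, the calls were decreases in the complement, chemokine and interferon lists, where 5.14% of all genes fell. Of 6 complement genes measured, 2 fell (median -0.53, and -0.36 after centring with 1 called). C3ar1, the receptor for complement C3a, was at 9.04, 8.93 and 8.92 with –10°C and at 8.37, 8.32 and 8.04 with –10°C/–20°C, and fell by 0.73 ± 0.11 (adjusted p = 0.0037). Complement factor B (Cfb) fell by 0.62 ± 0.13, a call lost after centring and without –10°C replicate 1 or 3 or –10°C/–20°C replicate 2. Among 21 chemokines and receptors 3 fell, namely Ccr2, Cxcl16 (-0.86 ± 0.19) and Ccr1, and Ccr1 and Cxcl16 were lost without –10°C replicate 2 or 3. Ccr1 was below background on all 3 coldest arrays and at least 1.58-fold lower (measured log2 difference -1.38 ± 0.36, adjusted p = 0.043), a call lost with the replicate number as a block. Ddx58, an RNA sensor also known as RIG-I, was the gene called among 16 interferon-stimulated genes and fell by 0.71 ± 0.12. None of the 14 lymphocyte genes, 4 MHC class II genes (median -0.55), 7 mast cell genes or 7 neutrophil genes was called by limma, with 1, 3, 2 and 1 at an unadjusted p under 0.05, and the neutrophil genes S100a8, S100a9, Mpo and Ngp were below background on all 6 arrays. None of the 20 cytokine and inflammatory genes that the study listed from these arrays, a list that is thus no independent choice, was called by limma (4 at an unadjusted p under 0.05, and 1 called lower with the replicate number as a block), and 6 of them were above background on at least 3 arrays.

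Some genes for cell division and lysosomes were lower, where 5.14% of all genes fell and 2.02% rose. Of 19 cell division genes, 5 fell (median -0.32) and 1 after centring. Top2a, a topoisomerase of dividing cells, was at 4.63, 4.41 and 4.61 with –10°C and at 3.71, 3.38 and 3.80 with –10°C/–20°C. The coldest arrays were below background, and the decrease was at least 1.02-fold (measured log2 difference -0.92 ± 0.17, adjusted p = 0.01). Ccna2 and Mcm3 fell by 0.79 and 0.73, both lost after centring, and the list held 1 to 3 calls without any of the decisive arrays, –10°C replicate 2 or 4°C replicate 1. Of 26 lysosomal genes 5 fell and 1 rose. Ctsc, cathepsin C, was at 9.95, 9.70 and 9.66 against 8.96, 8.70 and 8.71 and fell by 0.98 ± 0.15 (adjusted p = 0.004), while the cholesterol exporter Npc1 rose by 0.68 ± 0.17 (adjusted p = 0.037), a call lost without any of the decisive arrays. After centring 1 lysosomal gene was lower and 2 were higher, and 1 to 3 were lower without any of the same arrays. None of the 24 proteasome genes (median -0.01) and none of the 7 heat and cold shock genes (median 0.04) was called by limma, with 3 and 1 at an unadjusted p under 0.05.

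The genes of the last step were also looked up in 4°C against 30°C, which shares no array with it and in which 312 genes (2.1%) were called higher and 140 (0.942%) lower. Of the 300 genes called higher at the last step, 38 were called higher and 11 lower in that contrast, and of the 764 called lower, 23 were called higher and 28 lower. The measured 4°C against 30°C difference was above 0 for 60.0% of the genes called higher at the last step, 46.2% of those called lower and 53.5% of all genes. After centring, the higher calls held 50 that were also higher and 16 lower, and the lower calls held 8 higher and 18 lower. Single genes went either way. Lpin1 stood at means of 10.48 at 30°C and 11.20 at 4°C before reaching its highest level with –10°C/–20°C, whereas Pdk4 was at 9.84 at 30°C and 8.37 at 4°C, and Slc7a8 at 9.36 and 7.80.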

How the data were processed

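Total RNA of eWAT was hybridized to Affymetrix Mouse Exon 1.0 ST arrays. The authors background-corrected, normalized and summarized the signals by RMA in Affymetrix Expression Console and deposited them as log2 values (the sources used here give no versions). Among 23332 rows, 14996 had 1 gene symbol, 1019 several and 7317 none. A gene with more than 1 row (135 genes) was represented by the row with the highest mean. No further normalization was applied to these deposited log2 values. limma 3.58.1 in R 4.3.3 (lmFit, eBayes) was fitted to all 12 arrays with 4 groups, and p-values were adjusted over 14860 genes by the Benjamini-Hochberg method; a gene with an adjusted p under 0.05 was called. The script was tested on simulated data. Differences are on the log2 scale, values written as -fold are linear, and errors are SE of the fitted difference unless stated. Where all 3 arrays of a group were below background, the fold was bounded by the background level.

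Genes were named by a rule: the 15 largest increases and 15 largest decreases among called genes without overlap, the genes named in the paper, and up to 4 called members of each of 53 gene lists, or the 2 most abundant where none was called. The members and lists were chosen with earlier results of these data known. Most other genes are marked as chosen after their values were seen or as named to complete a count. Unmarked genes outside the rule include Fos, Nr4a1, Hsd11b1, Arntl and Cd163, which were not chosen in advance. The labels number the replicates 1 to 3 in each group. Deviations of same-numbered –10°C and –10°C/–20°C arrays from their group means correlated at 0.45, 0.21 and 0.41 across genes. Those of differently numbered arrays ran from -0.50 to 0.23, so the ranges overlapped and pairing was not established. No label names a shared source. The main fit was therefore unpaired, and the replicate number was used as a block only in alternatives. Alternatives were the scaling, the filter on low values, the rows, the variance prior, array weights, the arrays fitted, the replicate block, the methods' t-test and leaving out each array. Promoter windows came from RefSeq (GRCm38.p6).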

Additional observations from a re-analysis of the deposited data

How the results depend on the processing

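The number of calls, 1064 with 300 higher and 764 lower, depended on the estimate of the spread and on the rows tested. It was 1056 with the mean of all rows of a gene. A fit on the 6 arrays alone called 658 genes, 181 higher and 477 lower. The methods' t-test on the same 6 arrays, unpaired and with equal variances, had 2733 genes at an unadjusted p under 0.05 but only 4 after Benjamini-Hochberg adjustment, 2 higher and 2 lower, and it ended the call of all 125 called genes named here. Array weights gave 2006 calls, 525 higher and 1481 lower. Requiring a 2-fold change left 208, 90 higher and 118 lower. Testing every row of the table, including those with several symbols or none, changed the number of genes called lower to 488 rows. Single genes were not followed in that setting, and it is not among the 21 alternatives counted below. Quantile normalization gave 451 higher and 446 lower, and centring gave 558 higher and 266 lower. Leaving out each of the 12 arrays in turn gave 392 to 1126 calls, 138 to 325 higher and 254 to 818 lower. With the replicate number as a block, 1154 genes were called, of which 965 were among the 1064, and the block ended the calls of 5 genes named by the rule, Ccr1, Gatm, Loxl2, Npas2 and Sparc, and of Clock, while others, such as Kit, gained one. The same block on the 6 arrays alone, a setting chosen after seeing the data, gave 1283. Of the 125 called genes named by the rule, 66 kept their call in all 21 alternatives other than the t-test, among them Lep, Hcar1, Hcar2, Angpt1, Fgf10, Col3a1, Nr4a3, Scd3, Cyp2b10, Pde4d, Fkbp5, Ddit4 and Pdk4. None of these 125 genes changed sign in these 21 alternatives or in the t-test, while the balance of higher and lower calls turned after quantile normalization and after centring. Arrays carry no read depth. With 3 per group, a difference that was not called is not shown to be absent, and genes at or below background have no measured order.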
